A study of Mus musculus with 24 samples.

Results

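Chemokines are small secreted proteins that steer migrating cells, and chemokine receptors are the G protein-coupled receptors that read them. The genes described here are all those whose symbol is Ccl, Cxcl, Ccr or Cxcr followed by a number and at most 1 letter. They were taken from probe sets annotated with exactly 1 gene symbol, and a gene with several such probe sets was represented by the one with the highest mean over the 24 arrays. This gave 47 genes of 22180 genes measured in all, 32 of them ligands and 15 receptors. Ccl19 and Ccl21 have only probe sets that carry several symbols.

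The study asked how gene expression in blood vessel cells changes with the surrounding tissue, and measured RNA with Affymetrix mouse arrays, 8 arrays in each of 3 groups. The Wnt group came from Wnt-medulloblastomas of mice with Blbp-Cre, a Ctnnb1 +/Exon3 flox allele, Trp53 flox/flox and Pik3ca +/flox. The Shh group came from Shh-medulloblastomas of Ptch+/-; Ink4c-/- mice. The hindbrain group came from wild-type adult mice. All groups were of mixed strain background, and neither the tumour mice's ages nor any pooling of animals is given. Blbp is a gene of radial glia and neural progenitors, so Cre acts from that lineage in the Wnt mice, and whether the sorted cells themselves carried recombined alleles is not given. After papain digestion, cells bearing Cd144 and Cd105, the products of Cdh5 and Eng, were pulled out magnetically.

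In tissue, chemokines fall into inflammatory ligands, which are induced in macrophages, microglia and vessel walls and recruit leukocytes, and homeostatic ligands, which place cells in development and in lymphoid organs. Brain endothelium is known for displaying Cxcl12 together with its receptors. Atypical receptors such as Ackr1 bind chemokines without G protein signalling and carry or remove them.

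Levels below are on the log2 scale as deposited, and the number of arrays limits their precision. Differences carry their standard error (SE) and run as tumour minus hindbrain or Wnt minus Shh, and group means carry their standard deviation (SD, n = 8). A gene was called where limma's Benjamini-Hochberg adjusted p over all 22180 genes was under 0.05. The labels call the arrays biological replicates. The array also carries 92 probe sets for ERCC control sequences foreign to the mouse. Their means had a median of 3.96, and their 95th percentile, 5.24, served as the background level. By that measure 41 of the 47 genes were above background in at least 1 group, and Cxcl3, Cxcl15, Ccl26, Ccr3, Ccr4 and Ccr8 were below it in every group.

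The sorted cells carried endothelial genes throughout. Cdh5 averaged 12.41 ± 0.35 in Wnt, 12.89 ± 0.14 in Shh and 12.82 ± 0.09 in hindbrain cells (SD, n = 8 each). Markers of other cell types were present beside them. The mean of 19 microglia and macrophage markers was 8.69 ± 0.62 in Wnt, 9.33 ± 0.83 in Shh and 10.47 ± 0.33 in hindbrain arrays, and none of these markers was at background in any group. The log2 levels of that list summed to 143 to 178 in Wnt, 150.1 to 198 in Shh and 189.9 to 208 in hindbrain arrays. Such a sum is the mean times the number of markers, here and below, and no second measure. The mean of 16 endothelial markers was 10.58 ± 0.45 in Wnt, 11.53 ± 0.19 in Shh and 11.58 ± 0.10 in hindbrain arrays. It was lower in Wnt than in hindbrain arrays (log2 difference -1.004, two-sided, exact permutation p = 0.000155, which is the minimum over 12870 splits), while Shh and hindbrain differed by -0.05 (exact permutation p = 0.531). In such sorted populations, fewer cells of a type and less RNA per cell cannot be told apart.

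**Figure D1:**
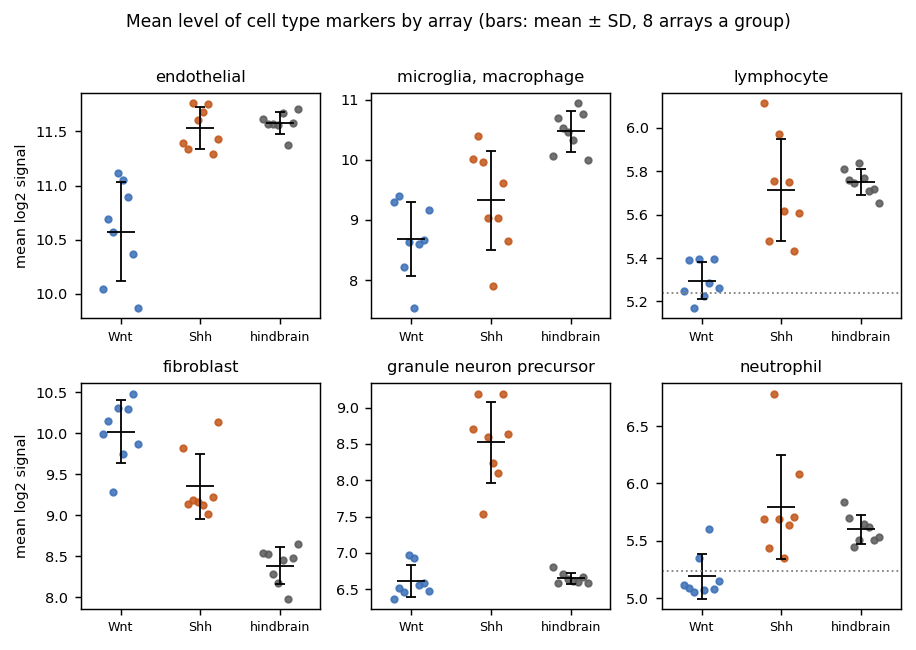
Mean log2 signal of the markers of 6 cell types (y axis) on each array of the Wnt, Shh and hindbrain groups (x axis); points are arrays, black bars the mean ± SD of 8 arrays, the dotted line the background level of 5.24. Microglia and macrophage markers were lowest in Wnt and highest in hindbrain arrays, endothelial markers were lowest in Wnt arrays, and granule neuron precursor markers stood at 8.52 in Shh against 6.65 in hindbrain arrays.

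Against hindbrain, Wnt vessel cells had higher Cxcl14, Cxcl13, Cxcr4, Cxcr6 and Cxcl5 and lower levels of 18 genes led by Ccl4, Cxcl10, Ccl3 and Cxcl11. In all 23 of the 47 genes were called (48.9%), against 45.3% of all genes. The 5 called higher were 10.6% of the 47, against 23.2% of all genes, and the 18 called lower were 38.3%, against 22% of all genes. The groups did not overlap for 10 of the 47 genes, against 20% of all genes, 3 of them higher and 7 lower, against 10.6% and 9.42% of all genes. The median difference of the 47 genes was -0.19, that of all genes -0.02.

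Against hindbrain, Shh vessel cells had higher Ccl11, Cxcl9, Cxcr4, Ccl8, Ccr2, Cxcr2, Cxcl14 and Cxcl5, and lower levels of 12 genes led by Ccl4, Ccl3, Ccl12 and Cxcl12. In all 20 were called (42.6%), against 37.8% of all genes. The 8 higher calls were 17.0% of the 47, against 18.9% of all genes, and the 12 lower calls were 25.5%, against 18.9%. No overlap between the groups was found for 10 genes, against 12.7% of all genes, 4 of them higher and 6 lower, against 7.13% and 5.55% of all genes. The median difference was -0.16, against -0.02 over all genes. Both comparisons use the same hindbrain arrays.

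Set directly against each other, Wnt cells had 6 genes higher than Shh cells, led by Cxcl14, Cxcl13 and Cxcr6, and 13 lower, led by Ccl11, Cxcl9, Ccl8 and Ccl5. These were 12.8% and 27.7% of the 47, against 18% and 17.8% of all genes, and together 40.4%, against 35.8%. The groups were separate for 5 genes, against 10.1% of all genes, 1 of them higher and 4 lower, against 5.8% and 4.32% of all genes. The median difference was -0.03, against -0.0019. When every array was shifted to the same median, the median of all genes moved to -0.14 for Wnt minus hindbrain and -0.11 for Shh minus hindbrain, and the calls over all genes moved to 3981 higher and 7423 lower for Wnt minus hindbrain, against 5152 and 4888 as deposited, and to 3152 and 6279 for Shh minus hindbrain, against 4203 and 4182. Every called difference of the 47 genes that is named here kept its direction under that scaling. The calls of Cxcl5 for Wnt minus hindbrain (adjusted p = 0.0691) and Ccl27a for Wnt minus Shh (adjusted p = 0.0788) ended. Cxcl10 gained a call for Wnt minus Shh (adjusted p = 0.0442).

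**Figure D2:**
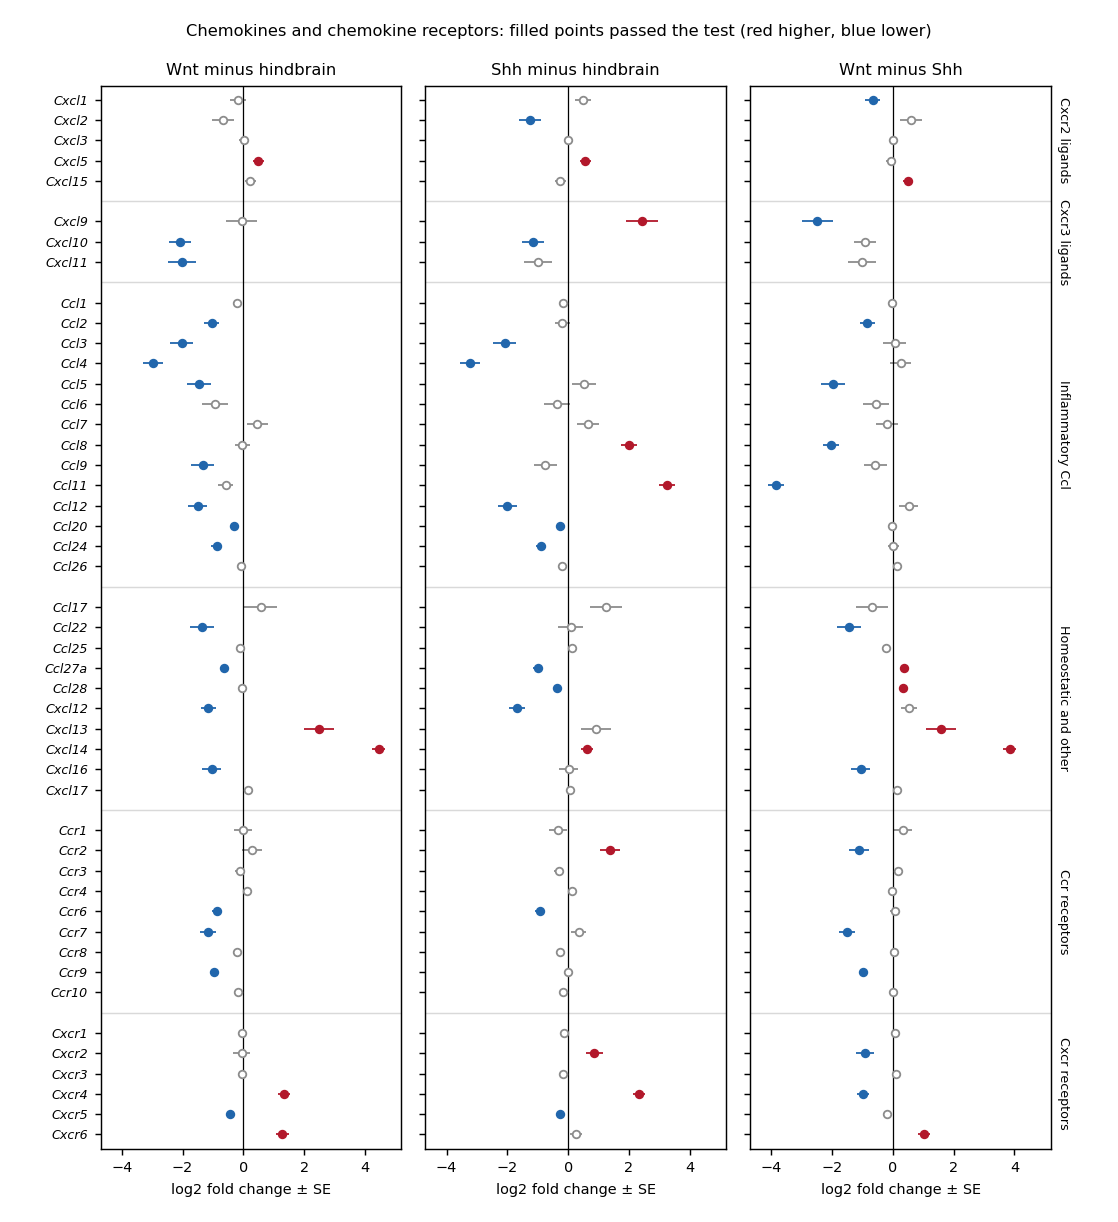
Log2 fold change ± SE (x axis) of each of the 47 genes, grouped by role, in the panels Wnt minus hindbrain, Shh minus hindbrain, then Wnt minus Shh; filled points passed the test, red higher and blue lower. Cxcl14 stands out to the right in Wnt cells at 4.45, Ccl11 in Shh cells at 3.26, and Ccl4 lies far to the left in both tumour comparisons.

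The stretches upstream of 4 genes are printed for reference beside the results: Cxcl14 for its rise in Wnt cells, Cxcl9 and its neighbour Cxcl10 because they moved differently in Shh cells, and Cxcl12 because it was lower in both tumour groups. They are the 250 bases before each annotated gene start, 5′ to 3′ on the gene's strand, from RefSeq on GRCm38.p6, the build of that table and not necessarily of the array. Capitals mark motif matches found on either strand: the interferon-stimulated response element (GAAA, any 2 letters, GAAA), the gamma-activated site (TTCNNNGAA), the NF-kB consensus, the AP-1 site (TGANTCA) and the TCF/LEF site (CTTTGAT).
Cxcl14 (chr13:56296552-56296801, minus strand): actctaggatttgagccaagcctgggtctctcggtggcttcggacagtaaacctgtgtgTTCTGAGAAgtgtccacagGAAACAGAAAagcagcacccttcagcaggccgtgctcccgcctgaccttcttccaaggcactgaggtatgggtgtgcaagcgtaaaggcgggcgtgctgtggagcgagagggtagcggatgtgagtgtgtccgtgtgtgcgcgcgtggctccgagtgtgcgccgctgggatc
Cxcl9 (chr5:92328080-92328329, minus strand): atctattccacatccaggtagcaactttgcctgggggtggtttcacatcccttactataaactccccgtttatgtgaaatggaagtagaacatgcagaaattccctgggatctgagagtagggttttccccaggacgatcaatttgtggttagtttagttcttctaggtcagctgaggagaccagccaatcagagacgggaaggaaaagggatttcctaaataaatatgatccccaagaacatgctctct
Cxcl10 (chr5:92348890-92349139, minus strand): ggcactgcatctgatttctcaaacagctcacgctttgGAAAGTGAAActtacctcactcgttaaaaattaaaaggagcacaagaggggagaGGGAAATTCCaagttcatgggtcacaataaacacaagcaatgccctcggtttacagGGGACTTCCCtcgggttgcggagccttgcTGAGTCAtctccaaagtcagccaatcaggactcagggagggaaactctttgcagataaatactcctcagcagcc
Cxcl12 (chr6:117168285-117168534, plus strand): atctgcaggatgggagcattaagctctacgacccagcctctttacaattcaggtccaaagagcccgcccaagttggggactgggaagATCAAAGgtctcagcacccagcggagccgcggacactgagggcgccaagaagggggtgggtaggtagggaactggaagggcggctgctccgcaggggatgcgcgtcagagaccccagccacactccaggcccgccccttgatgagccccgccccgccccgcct

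Of the 47 genes, 33 had such a stretch in the table. The interferon-stimulated response element was found upstream of Cxcl10 and Cxcl14 and in 2.98% of all 32851 promoters. Upstream of Cxcl14 it lay 172 to 163 bases before the start, with a gamma-activated site, found in 7.02% of promoters, 191 to 183 bases before it. Cxcl10 also held 2 NF-kB matches and an AP-1 match, motifs found in 3.9% and 6.75% of promoters. No match to these motifs lay in the Cxcl9 window, and Cxcl12 held the TCF/LEF letters, which 3.21% of promoters hold. The GLI site (GACCACCCA) was in 0.225% of promoters and in none of the 33. The NF-kB consensus was matched upstream of 8 of the 33 genes, among them Cxcl1, Cxcl2 and Ccl20. No matches overlapped in the 4 stretches printed, and a match is a description of letters.

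Among the homeostatic ligands, Cxcl14, a chemokine made by many epithelia and fibroblasts, was far higher in Wnt vessel cells. Its level on the lowest, median and highest array was 11.19, 12.30 and 12.68 in Wnt cells, 7.47, 8.45 and 9.07 in Shh cells, and 7.52, 7.73 and 7.92 in hindbrain cells. Every Wnt array lay above every array of the other groups, while Shh and hindbrain arrays overlapped. Wnt cells were 21.9-fold above hindbrain (log2 4.45 ± 0.21, adjusted p = 1.04e-14) and 14.3-fold above Shh cells (log2 3.84 ± 0.21, adjusted p = 3.12e-13). Shh cells were above hindbrain by 0.61 ± 0.21 (adjusted p = 0.0209). Beside it, the mean of 10 fibroblast markers was 10.02 ± 0.38 in Wnt, 9.35 ± 0.40 in Shh and 8.39 ± 0.22 in hindbrain arrays. Their summed log2 levels were 92.8 to 105 in Wnt, 90.2 to 101 in Shh and 79.9 to 86.5 in hindbrain arrays. In each tumour group 8 of the 10 rose and 1 fell, against 23.2% and 22% of all genes in Wnt and 18.9% each way in Shh cells. The 1 that fell was Dpt in Wnt (-1.25) and Ogn in Shh cells (-1.65). The part of fibroblasts in the chemokine values was not tested.

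Cxcl13, the ligand of Cxcr5 that draws B cells into follicles, had levels of 7.25, 9.25 and 9.99 on the lowest, median and highest Wnt array, 5.61, 6.71 and 9.58 in Shh cells, and 5.88, 6.25 and 7.89 in hindbrain cells. Wnt arrays were mostly high and Shh arrays spread widely, with 3 Shh arrays between 8.17 and 9.58, and all groups overlapped. The difference was 2.50 ± 0.50 for Wnt minus hindbrain (5.66-fold, adjusted p = 0.000176) and 1.58 ± 0.50 for Wnt minus Shh (adjusted p = 0.0147). With the endothelial marker mean of each array added to the fit both calls ended (2.08, adjusted p = 0.122, and 1.18, adjusted p = 0.406), and with the microglia and macrophage marker mean the Wnt minus hindbrain difference was 4.13. Endothelial marker means of Wnt arrays did not overlap those of the other groups. They were at most 11.11 in Wnt against at least 11.29 in Shh and 11.37 in hindbrain arrays. A fit with them therefore has little to separate group from marker level. Microglia and macrophage marker means were at most 9.39 in Wnt and at least 9.99 in hindbrain arrays, while Shh arrays spanned 7.90 to 10.40. The fit with that mean has the same limit for Wnt minus hindbrain, here and below.

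Cxcl12, the ligand of Cxcr4 that brain vessels display, was lower in both tumour groups. Its lowest, median and highest level was 9.07, 10.47 and 11.18 in Wnt cells, 8.81, 9.94 and 10.58 in Shh cells, and 11.24, 11.54 and 11.69 in hindbrain cells. No tumour array reached the lowest hindbrain array. The fall was -1.16 ± 0.25 in Wnt cells (adjusted p = 0.000515) and -1.68 ± 0.25 in Shh cells (adjusted p = 1.14e-05), which is 2.23-fold and 3.20-fold lower than hindbrain. Wnt minus Shh was 0.52 ± 0.25 (adjusted p = 0.117), but 0.71 without Wnt array 3 (adjusted p = 0.0154).

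Cxcl16, the membrane-anchored ligand of Cxcr6, fell in Wnt cells alone among the tests against hindbrain, and the test between the tumours was also passed. Its levels were 8.16, 8.95 and 9.82 in Wnt cells, 9.05, 9.95 and 10.68 in Shh cells, and 8.95, 9.77 and 11.19 in hindbrain cells, so the groups overlapped. The difference was -1.04 ± 0.31 for Wnt minus hindbrain (adjusted p = 0.00795) and -1.06 ± 0.31 for Wnt minus Shh (adjusted p = 0.00928). With the microglia and macrophage marker mean in the fit, Wnt minus hindbrain turned to 0.35 (adjusted p = 0.477), Wnt minus Shh was -0.56 (adjusted p = 0.077) and Shh minus hindbrain became 0.91 (adjusted p = 0.0154). With the endothelial marker mean the differences were -1.76 for Wnt minus hindbrain (adjusted p = 0.0239) and -1.74 for Wnt minus Shh (adjusted p = 0.0268).

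Ccl27a and Ccl28 are the skin and mucosal ligands of Ccr10. Ccl27a fell by 0.63 in Wnt cells and by 1.01 in Shh cells (adjusted p = 0.000751 and 5.60e-06). Its dimmer probe set gave a Shh minus hindbrain difference of 0.01. That set lay around background, at 4.93 in Wnt, 5.26 in Shh and 5.25 in hindbrain arrays. It was called lower in Wnt than in hindbrain cells (-0.32, adjusted p = 0.043). Why the probe sets differ was not tested. The Ccl27a call in Wnt cells ended with the endothelial marker mean (-0.36, adjusted p = 0.398), while with the microglia and macrophage one the difference was -1.06. The mean of its probe sets differed by -0.50 in Shh cells. Wnt minus Shh was 0.37 (adjusted p = 0.0465), a call that leaving out any of 14 single arrays ended, with 0.02 (adjusted p = 0.87) for the mean of the probe sets. The dimmer probe set was called in the opposite direction, at -0.32 (adjusted p = 0.0465). Ccl28 fell by 0.38 in Shh cells (SE 0.09, adjusted p = 0.00246), and Wnt minus Shh was 0.32 (adjusted p = 0.00782; 0.43, adjusted p = 0.0799, with the endothelial marker mean). Ccl22, a ligand of Ccr4 made by dendritic cells, lay at 4.30 to 5.45 in Wnt cells, 5.03 to 8.97 in Shh cells and 5.53 to 7.33 in hindbrain cells. It was lower in Wnt than in hindbrain cells (-1.36 ± 0.40, adjusted p = 0.0073), without overlap, and its mean of 4.98 in Wnt cells was below background. Its call ended with either marker mean in the fit (-1.51, adjusted p = 0.177, with the endothelial and -1.10, adjusted p = 0.205, with the microglia and macrophage markers). Wnt minus Shh was -1.45 (adjusted p = 0.00632), and -1.59 and no longer called with the endothelial marker mean (adjusted p = 0.144). Ccl17, Ccl25 and Cxcl17 passed no test. In all, 2 of the 10 homeostatic ligands rose and 4 fell in Wnt cells, against 23.2% and 22% of all genes, and 1 rose and 3 fell in Shh cells, against 18.9% of all genes each way.

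**Figure D3:**
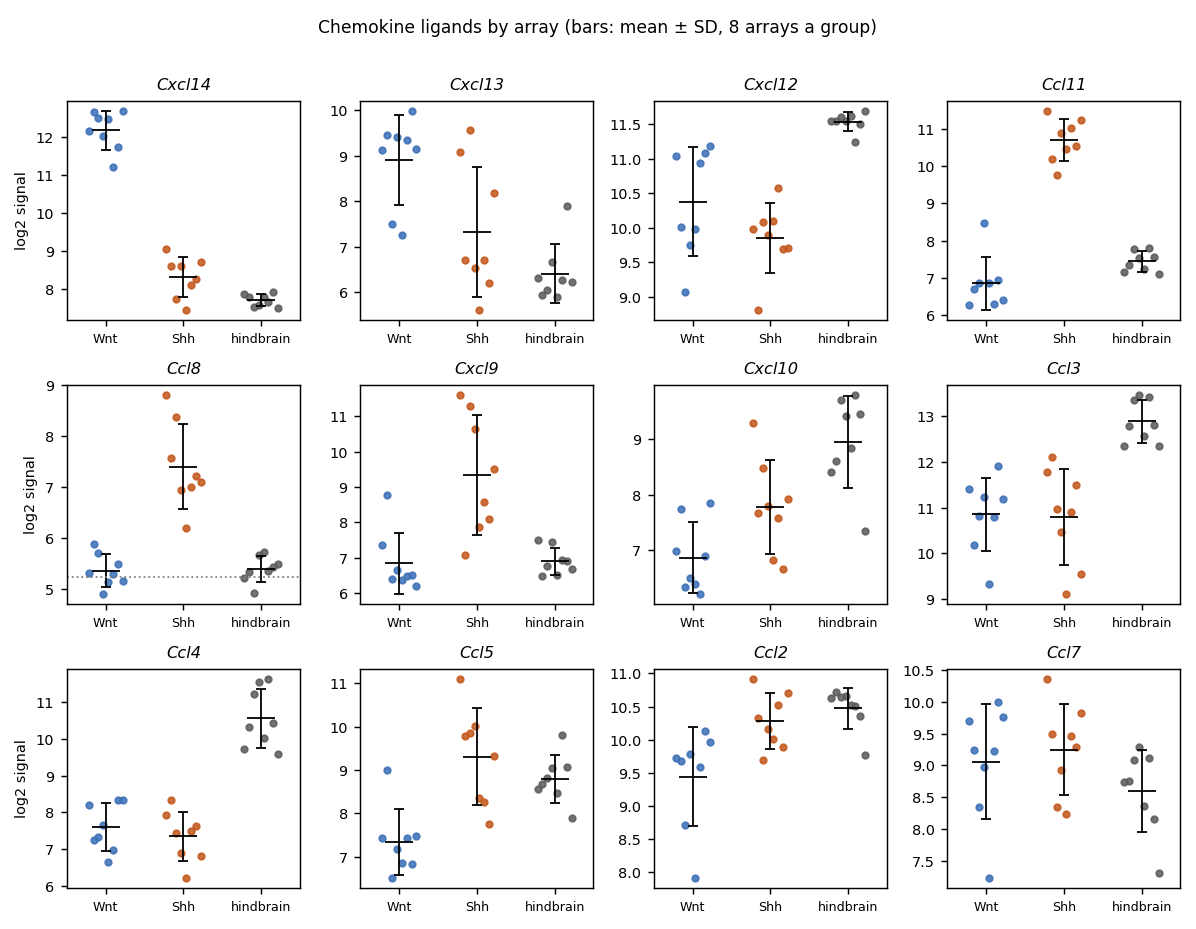
Log2 signal (y axis) of 12 chemokine ligands on each array of the Wnt, Shh and hindbrain groups (x axis); points are arrays, black bars the mean ± SD of 8 arrays, the dotted line the background level of 5.24. Cxcl14 is high on all 8 Wnt arrays, Ccl11 and Ccl8 on all 8 Shh arrays, and Ccl3, Ccl4 and Cxcl12 are highest in hindbrain.

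Of the inflammatory Ccl ligands, the genes of 1 cluster on chromosome 11 moved in different directions. In the order of the RefSeq table it holds Ccl2, Ccl7, Ccl11, Ccl12, Ccl8 and Ccl1. Ccl11, eotaxin, which attracts eosinophils through Ccr3, had levels of 6.25, 6.78 and 8.47 (lowest, median, highest) in Wnt cells, 9.75, 10.72 and 11.50 in Shh cells, and 7.11, 7.43 and 7.81 in hindbrain cells. Every Shh array was above every other array. Shh cells were 9.61-fold above hindbrain (log2 3.26 ± 0.26, adjusted p = 5.53e-10), and Wnt cells were below Shh cells by a log2 difference of -3.85 ± 0.26 (adjusted p = 1.69e-11). Wnt minus hindbrain was -0.59 ± 0.26 (adjusted p = 0.0668).

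Ccl8, a monocyte chemoattractant, showed a like order. It lay at 4.91, 5.31 and 5.89 in Wnt cells, 6.19, 7.16 and 8.81 in Shh cells, and 4.93, 5.39 and 5.74 in hindbrain cells, so Wnt and hindbrain arrays were near background and all Shh arrays above them. Shh cells were 4.01-fold above hindbrain (log2 2.003 ± 0.25, adjusted p = 8.74e-07), and Wnt minus Shh was -2.04 ± 0.25 (adjusted p = 5.48e-07).

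Ccl12 and Ccl2, ligands of Ccr2 from the same cluster, went the other way or did not pass the test. Ccl12 had levels of 4.67, 6.09 and 6.76 in Wnt cells, 4.56, 5.27 and 6.57 in Shh cells, and 6.67, 7.15 and 8.16 in hindbrain cells. It fell by 1.50 in Wnt cells (SE 0.31, adjusted p = 0.000297) and by 2.01 in Shh cells (SE 0.31, adjusted p = 1.57e-05), and Shh and hindbrain arrays did not overlap. With the microglia and macrophage marker mean in the fit the Wnt call ended (-0.14, adjusted p = 0.808) and the Shh difference was -1.14, while with the endothelial marker mean the Wnt difference was -2.96. Ccl2 was at 7.92, 9.70 and 10.13 in Wnt cells, 9.69, 10.25 and 10.92 in Shh cells, and 9.76, 10.57 and 10.72 in hindbrain cells. It was lower in Wnt than in hindbrain cells (-1.04 ± 0.25, adjusted p = 0.00109; -0.38 and adjusted p = 0.449 with the microglia and macrophage marker mean, -1.84 and adjusted p = 0.00197 with the endothelial one) and lower in Wnt than in Shh cells (-0.84 ± 0.25, adjusted p = 0.00884; -0.61 and adjusted p = 0.0627, or -1.60 and adjusted p = 0.00714, with these marker means). Shh minus hindbrain was -0.20 ± 0.25 (adjusted p = 0.57) for Ccl2. The other members of the cluster, Ccl7 and Ccl1, passed no test.

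The neighbouring cluster on chromosome 11 holds Ccl5, Ccl9, Ccl6, Ccl3 and Ccl4. Ccl3 and Ccl4, the macrophage inflammatory proteins that recruit monocytes and T cells, were lower on every tumour array than on any hindbrain array. Ccl3 had levels of 9.32, 11.01 and 11.91 in Wnt cells, 9.11, 10.93 and 12.10 in Shh cells, and 12.35, 12.80 and 13.48 in hindbrain cells. Its difference from hindbrain was -2.04 ± 0.38 in Wnt cells (adjusted p = 7.16e-05) and -2.10 ± 0.38 in Shh cells (adjusted p = 9.29e-05). Ccl4 had levels of 6.64, 7.50 and 8.34 in Wnt cells, 6.21, 7.47 and 8.35 in Shh cells, and 9.60, 10.39 and 11.65 in hindbrain cells. Its fall was the largest among the 47 genes in both comparisons, 7.87-fold in Wnt cells (log2 -2.98 ± 0.33, adjusted p = 5.29e-08) and 9.37-fold in Shh cells (log2 -3.23 ± 0.33, adjusted p = 4.48e-08).

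Wnt and Shh cells did not pass the test against each other for Ccl3 (0.06 ± 0.38) or Ccl4 (0.25 ± 0.33). Beside them, 17 of the 19 microglia and macrophage markers fell and 0 rose in Wnt cells, against 22% and 23.2% of all genes. In Shh cells 13 fell and 1 rose, against 18.9% of all genes each way. The part of these markers in the Ccl3 and Ccl4 values was not tested. With their mean in the fit, the Ccl3 call in Wnt cells ended (-0.26, adjusted p = 0.655), and the differences of Ccl3 in Shh cells and Ccl4 in Wnt cells were -0.96 and -1.51, both still called. With the endothelial marker mean the Ccl3 difference in Wnt cells was -3.31 (adjusted p = 0.000351).

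Ccl5, which recruits T cells and monocytes, had levels of 6.52, 7.30 and 9.005 in Wnt cells, 7.75, 9.54 and 11.10 in Shh cells, and 7.89, 8.75 and 9.80 in hindbrain cells. All groups overlapped, Wnt arrays being the lowest but for Wnt array 2. Wnt cells were lower than hindbrain (-1.45 ± 0.39, adjusted p = 0.00333) and than Shh cells (-1.97 ± 0.39, adjusted p = 0.000264), and Shh minus hindbrain was 0.51 ± 0.39 (adjusted p = 0.321). The Wnt minus hindbrain call ended with either marker mean in the fit (-1.83, adjusted p = 0.0782, with the endothelial and -0.05, adjusted p = 0.953, with the microglia and macrophage markers), and with the microglia and macrophage markers Shh minus hindbrain was called at 1.41 (adjusted p = 0.0109).

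Of the remaining inflammatory ligands, Ccl9 fell in Wnt cells (-1.33 ± 0.38, adjusted p = 0.00527), at levels of 6.12 to 8.82 in Wnt and 7.95 to 9.77 in hindbrain cells. That call ended with either marker mean, at 0.03 (adjusted p = 0.975) with the microglia and macrophage markers and -1.56 (adjusted p = 0.130) with the endothelial ones. Ccl24, an eosinophil attractant, fell in Wnt cells by 0.88 and in Shh cells by 0.90 (adjusted p = 0.000178 and 0.000266), and the Wnt call ended with either marker mean while the difference was -0.83 (adjusted p = 0.079) with the endothelial and -0.60 (adjusted p = 0.0984) with the microglia and macrophage markers. Ccl20, the ligand of Ccr6, fell by 0.30 in Wnt and 0.27 in Shh cells (adjusted p = 0.0153 and 0.0352) and lay close to background, at group means of 5.41 in Wnt, 5.45 in Shh and 5.71 in hindbrain cells. With the microglia and macrophage marker mean the Ccl20 differences were -0.60 and -0.46. The Ccl20 call in Wnt cells ended with the endothelial marker mean (-0.14, adjusted p = 0.684), and leaving out any of 8 single arrays ended that in Shh cells (adjusted p up to 0.0854). Over the 14 inflammatory Ccl ligands, 0 rose and 8 fell in Wnt cells, against 23.2% and 22% of all genes. In Shh cells 2 rose and 5 fell, against 18.9% of all genes each way.

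The interferon-induced ligands of Cxcr3 on activated T cells, Cxcl9, Cxcl10 and Cxcl11, are neighbours on chromosome 5 and did not move together. Cxcl9 had levels of 6.22, 6.49 and 8.78 (lowest, median, highest) in Wnt cells, 7.10, 9.05 and 11.61 in Shh cells, and 6.49, 6.83 and 7.50 in hindbrain cells. Shh arrays spread widely, and the lowest of them lay within the hindbrain range. The difference was 2.43 ± 0.52 between Shh and hindbrain (5.41-fold, adjusted p = 0.000576) and -2.49 ± 0.52 for Wnt minus Shh (adjusted p = 0.000428). The Wnt minus Shh call ended with the endothelial marker mean in the fit (-2.20, adjusted p = 0.112). Wnt minus hindbrain was -0.06 ± 0.52 (adjusted p = 0.94).

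Cxcl10 had levels of 6.22, 6.70 and 7.86 in Wnt cells, 6.66, 7.74 and 9.30 in Shh cells, and 7.34, 9.13 and 9.81 in hindbrain cells. It fell by 2.08 in Wnt cells (SE 0.36, adjusted p = 3.33e-05) and by 1.17 in Shh cells (SE 0.36, adjusted p = 0.0128). Both calls ended with the microglia and macrophage marker mean in the fit (-0.79, adjusted p = 0.215, and -0.34, adjusted p = 0.527). Wnt minus Shh was -0.91 ± 0.36 (adjusted p = 0.0517) and was called under several alternatives, among them without Wnt array 8 or without Shh array 5. Cxcl11 had levels of 5.67, 6.02 and 8.52 in Wnt cells, 5.71, 7.36 and 8.90 in Shh cells, and 6.61, 8.38 and 9.76 in hindbrain cells. Its difference was -2.01 ± 0.46 in Wnt cells (adjusted p = 0.000684) and, no longer called, -1.63 with the endothelial marker mean (adjusted p = 0.1995). In Shh cells it was -0.99 ± 0.46 (adjusted p = 0.0913). Cxcr3, their receptor, passed no test, with means of 6.05 in Wnt, 5.95 in Shh and 6.11 in hindbrain cells.

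Of the 5 neutrophil-recruiting ligands of Cxcr2, 1 rose in Wnt cells, and 1 rose and 1 fell in Shh cells, shares of 20%, near the 23.2% of all genes that rose in Wnt cells and the 18.9% that rose or fell in Shh cells. Cxcl2 fell in Shh cells (-1.26 ± 0.36, adjusted p = 0.00721; -0.67, adjusted p = 0.242, with the microglia and macrophage marker mean), with levels of 7.49 to 9.12 in Shh and 7.90 to 10.58 in hindbrain cells. Cxcl5 was higher in Wnt and Shh cells by 0.49 ± 0.17 and 0.56 ± 0.17 (adjusted p = 0.0238 and 0.0131), at levels of 4.96 to 6.25 in Wnt, 5.13 to 6.32 in Shh and 4.88 to 5.48 in hindbrain cells. These lie around background, and the Wnt call ended without Wnt array 3 (0.40) or 8 (0.41), without Wnt arrays 1 and 8 together (0.44, adjusted p = 0.0619) and with arrays shifted to the same median (0.38, adjusted p = 0.0691). It also ended with the endothelial (0.09, adjusted p = 0.888) or the microglia and macrophage marker mean (0.28, adjusted p = 0.475), the Shh call with the microglia and macrophage marker mean (0.43, adjusted p = 0.150). Cxcl1 was lower in Wnt than in Shh cells (-0.67 ± 0.26, adjusted p = 0.0445), a call that leaving out any of 10 single arrays ended, with adjusted p up to 0.0929. Cxcl15 and Cxcl3 were at background.

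Among the receptors, Cxcr4, the signalling receptor of Cxcl12, was higher in both tumour groups and most of all in Shh cells. Its levels were 8.94, 9.88 and 10.66 in Wnt cells, 10.48, 10.65 and 11.66 in Shh cells, and 8.11, 8.49 and 8.86 in hindbrain cells. All tumour arrays were above all hindbrain arrays, and Wnt and Shh arrays overlapped. Shh cells were 5.01-fold above hindbrain (log2 2.33 ± 0.19, adjusted p = 1.47e-09) and Wnt cells 2.54-fold (log2 1.34 ± 0.19, adjusted p = 2.72e-06; 0.68, adjusted p = 0.151, with the endothelial marker mean). Wnt minus Shh was -0.98 ± 0.19 (adjusted p = 0.000254; -1.61 with the endothelial marker mean).

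Cxcr4 is also known from granule neuron precursors, and 9 of 10 markers of those cells rose in Shh cells, against 18.9% of all genes, while 2 rose and 2 fell in Wnt cells, near the shares of all genes. Their mean was 6.61 ± 0.22 in Wnt, 8.52 ± 0.56 in Shh and 6.65 ± 0.07 in hindbrain arrays, with summed log2 levels of 63.7 to 69.8 in Wnt, 75.4 to 91.9 in Shh and 65.9 to 68.0 in hindbrain arrays. Of the 10 markers, 3 were at background in Wnt, 0 in Shh and 1 in hindbrain cells. Their part in the Cxcr4 values was not tested.

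Cxcr6, the receptor of Cxcl16 on memory T cells and natural killer cells, had levels of 5.68, 6.50 and 7.55 in Wnt cells, 5.23, 5.54 and 5.79 in Shh cells, and 4.97, 5.25 and 5.64 in hindbrain cells. Every Wnt array was above every hindbrain array, which lay around background. The difference was 1.28 ± 0.21 for Wnt minus hindbrain (2.43-fold, adjusted p = 1.25e-05) and 1.02 ± 0.21 for Wnt minus Shh (adjusted p = 0.00033). Both calls ended with the endothelial marker mean in the fit (0.80, adjusted p = 0.137, and 0.56, adjusted p = 0.307). Of 9 lymphocyte markers, 0 rose and 6 fell in Wnt cells, against 23.2% and 22% of all genes. Their mean, close to background, was 5.30 ± 0.09 in Wnt, 5.72 ± 0.23 in Shh and 5.75 ± 0.06 in hindbrain arrays. At background were 3 of the markers in Wnt, 3 in Shh and 4 in hindbrain cells. Cd3g, Ms4a1 and Ncr1, among the 6 that fell, were under background in both Wnt and hindbrain cells. The part of lymphocytes in the Cxcr6 values was not tested.

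Ccr2, the receptor of Ccl2 on inflammatory monocytes, had levels of 4.90, 6.40 and 7.43 in Wnt cells, 6.34, 7.22 and 8.72 in Shh cells, and 5.65, 5.99 and 6.13 in hindbrain cells. All Shh arrays were above all hindbrain arrays, and Wnt arrays lay on both sides of them. Shh minus hindbrain was 1.39 ± 0.33 (2.62-fold, adjusted p = 0.0018), Wnt minus hindbrain 0.28 ± 0.33 (adjusted p = 0.543) and Wnt minus Shh -1.11 ± 0.33 (adjusted p = 0.0104; -0.80, adjusted p = 0.0704, with the microglia and macrophage and -2.06, adjusted p = 0.0117, with the endothelial marker mean). Of the 19 microglia and macrophage markers, 13 fell in Shh cells and 1 rose, against 18.9% of all genes each way. The 1 that rose was Lyz2, which monocytes and macrophages express. The part of these cells in the Ccr2 values was not tested.

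Cxcr2, the neutrophil receptor of Cxcl1, Cxcl2 and Cxcl5, lay at 5.59 to 7.27 in Wnt cells, 6.31 to 8.38 in Shh cells and 5.82 to 6.73 in hindbrain cells. It was higher in Shh than in hindbrain cells by 0.87 ± 0.29 (adjusted p = 0.0188; 0.86, adjusted p = 0.0798, with the microglia and macrophage marker mean), with 3 Shh arrays above 8. Wnt minus Shh was -0.93 (adjusted p = 0.0125), and -0.95 and no longer called with the endothelial marker mean (adjusted p = 0.224). Beside it, 3 of 10 neutrophil markers rose and 1 fell in Shh cells, against 18.9% of all genes each way, at a mean of 5.19 ± 0.19 in Wnt, 5.80 ± 0.45 in Shh and 5.60 ± 0.13 in hindbrain arrays and with 7, 4 and 7 of the markers at background in these groups. Their part was not tested.

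Ccr7 and Ccr9 were lower in Wnt cells than in either other group, with no overlap. Ccr7, which guides dendritic cells and T cells to lymph nodes, had levels of 6.49, 6.83 and 7.27 in Wnt cells, 7.51, 8.18 and 9.66 in Shh cells, and 7.60, 7.92 and 8.67 in hindbrain cells. The difference was -1.17 ± 0.26 for Wnt minus hindbrain (adjusted p = 0.000453; -0.93, adjusted p = 0.0832, with the microglia and macrophage marker mean) and -1.51 ± 0.26 for Wnt minus Shh (adjusted p = 3.8e-05). Ccr9, the receptor of Ccl25, was at background in Wnt cells, at 4.44 to 4.94, against 5.10 to 6.42 in Shh cells and 5.54 to 5.82 in hindbrain cells. Ccr6, the receptor of Ccl20, was under background on every tumour array, at 4.64 to 5.12 in Wnt and 4.58 to 4.94 in Shh cells, against 4.99 to 6.23 in hindbrain cells. It fell by 0.88 in Wnt and 0.94 in Shh cells (adjusted p = 3.36e-05 and 2.95e-05). Cxcr5, the B cell receptor of Cxcl13, fell by 0.45 in Wnt and 0.26 in Shh cells (adjusted p = 7.87e-05 and 0.0156). It lay close to background, at means of 5.50 in Wnt, 5.68 in Shh and 5.94 in hindbrain cells. Its calls ended with the endothelial marker mean in Wnt cells (-0.23, adjusted p = 0.321) and with the microglia and macrophage marker mean in Shh cells (-0.27, adjusted p = 0.0607). Ccr1, Ccr10 and Cxcr1 passed no test.

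**Figure D4:**
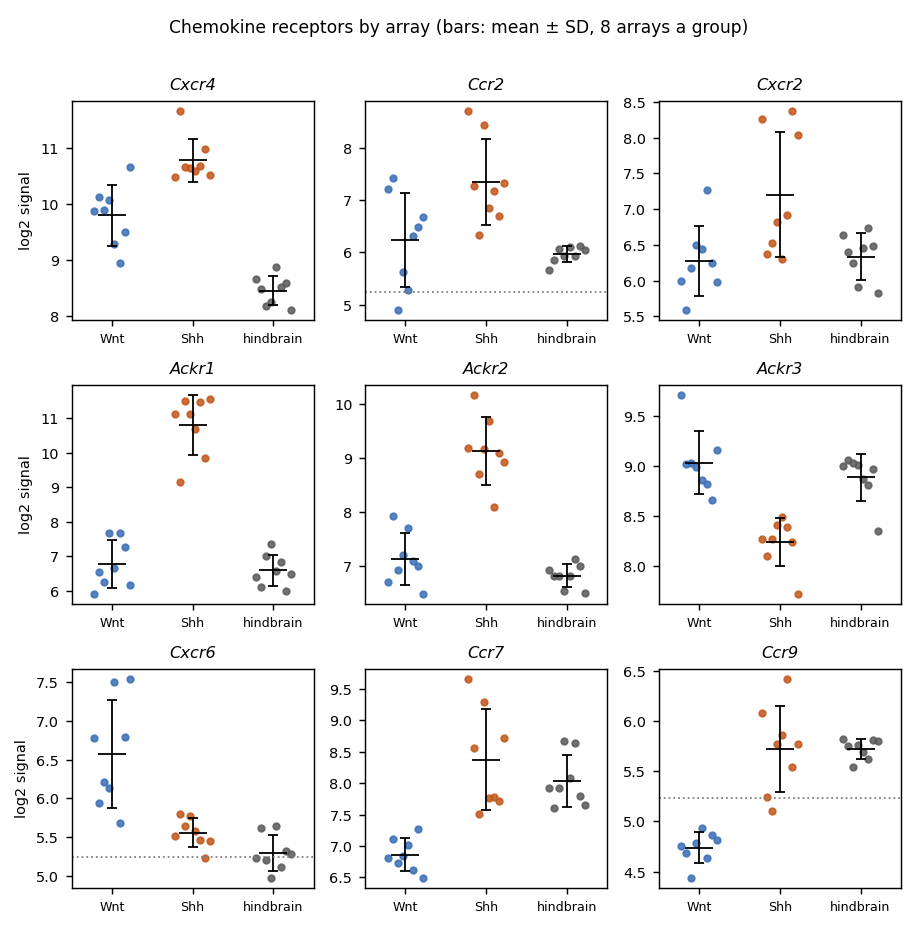
Log2 signal (y axis) of 6 chemokine receptors and the atypical receptors Ackr1, Ackr2 and Ackr3 on each array of the Wnt, Shh and hindbrain groups (x axis); points are arrays, black bars the mean ± SD of 8 arrays, the dotted line the background level of 5.24. Cxcr4 is above the hindbrain range on all tumour arrays, Ackr1 and Ackr2 are high on the 8 Shh arrays alone, and Ccr7 and Ccr9 are lowest on the Wnt arrays.

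Of the atypical receptors, which are not among the 47 genes, Ackr1, Ackr2 and Ackr3 differed between the tumours. Ackr1, the receptor of venules that carries chemokines across the vessel wall, had levels of 5.92, 6.605 and 7.69 in Wnt cells, 9.16, 11.12 and 11.56 in Shh cells, and 6.01, 6.54 and 7.35 in hindbrain cells. Every Shh array was above every other array, and Shh cells were 18.5-fold above hindbrain (log2 4.21 ± 0.32, adjusted p = 3.51e-10). Wnt cells were below Shh cells by a log2 difference of -4.04 ± 0.32 (adjusted p = 3.93e-10). Ackr2, a scavenger of inflammatory Ccl ligands, was 4.96-fold higher in Shh than in hindbrain cells (log2 2.31 ± 0.22, adjusted p = 1.41e-08), again without overlap, and Wnt minus Shh was -2.002 ± 0.22 (adjusted p = 9.05e-08). Wnt minus hindbrain was 0.17 ± 0.32 for Ackr1 and 0.31 ± 0.22 for Ackr2, neither called. Ackr3, the scavenger of Cxcl12, averaged 9.04 ± 0.31 in Wnt, 8.24 ± 0.24 in Shh and 8.89 ± 0.23 in hindbrain cells, with Shh minus hindbrain at -0.65 ± 0.13 (adjusted p = 0.000267) and Wnt minus Shh at 0.80 ± 0.13 (adjusted p = 2.13e-05). Ccrl2 was called lower in both tumour groups and not between them, at means of 8.32 in Wnt, 8.87 in Shh and 10.89 in hindbrain cells. No tumour array reached its hindbrain range. Ackr4 was below background in every group.

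Cx3cl1, the membrane-bound chemokine of endothelium and neurons, fell in Shh cells (-1.06 ± 0.18, adjusted p = 3.93e-05), and its receptor Cx3cr1, a microglial gene, fell in Wnt and Shh cells by 2.42 and 2.21 (adjusted p = 2.11e-07 and 2.03e-06). Ppbp, a platelet ligand of Cxcr2, fell by 2.83 and 2.39 (adjusted p = 6.84e-11 and 4.92e-09), beside 4 of 5 platelet markers that fell in each tumour group, against 22% of all genes in Wnt and 18.9% in Shh cells. The median difference of the 5 markers was -0.41 in Wnt and -0.29 in Shh cells. The strongest fall was that of Gp9, at -3.15 and -3.10, and 1 of the 5 was at background in each group. The part of platelets was not tested. Pf4, another platelet chemokine, differed from hindbrain by 0.01 ± 0.28 in Wnt and 0.03 ± 0.28 in Shh cells, neither called. Over the 13 measured atypical receptors and other chemokines, 0 rose and 6 fell in Wnt cells, against 23.2% and 22% of all genes, and 2 rose and 6 fell in Shh cells, against 18.9% each way.

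Of 22 measured cytokine and NF-kB genes, among them inducers of inflammatory chemokines, 1 rose and 17 fell in Wnt cells, with a median difference of -1.15, and 2 rose and 13 fell in Shh cells, with a median of -0.56. Of all genes, 23.2% rose and 22% fell in Wnt cells, and 18.9% moved each way in Shh cells. The microglia and macrophage markers fell beside them, 17 of 19 in Wnt and 13 of 19 in Shh cells, with differences of their mean of -1.79 and -1.15, and their part was not tested. Il1a, an alarm cytokine, had levels of 4.95, 6.90 and 8.02 in Wnt cells, 5.96, 8.16 and 9.56 in Shh cells, and 10.78, 11.77 and 12.95 in hindbrain cells. It fell by 5.22 in Wnt and 3.78 in Shh cells (adjusted p = 2.82e-09 and 1.23e-06). Tnf, an inducer of NF-kB, had differences of -3.75 in Wnt and -3.50 in Shh cells (adjusted p = 3.6e-08 and 3.14e-07), and for both genes no tumour array reached the hindbrain range. Nfkbia, the NF-kB inhibitor that NF-kB itself induces, fell by 1.90 in Wnt and 0.87 in Shh cells (adjusted p = 3.74e-09 and 0.000498).

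Of 14 measured genes of interferon signalling, 0 rose and 10 fell in Wnt cells and 1 rose and 11 fell in Shh cells, with medians of -0.91 and -0.59, beside the same falling markers, whose part was not tested here either. Over all genes, 23.2% rose and 22% fell in Wnt cells, and 18.9% moved each way in Shh cells. Irf1, a transcription factor induced by interferon gamma, fell by 1.80 in Wnt and 1.59 in Shh cells (adjusted p = 2.01e-08 and 4.06e-07). Ifng itself lay close to background, with means of 5.50 in Wnt, 5.54 in Shh and 5.83 in hindbrain cells. Cxcl9 was higher in Shh cells while Irf1 was lower there. Of 24 genes that signal below chemokine receptors, 5 rose and 14 fell in Wnt cells, against 23.2% and 22% of all genes, and 1 rose and 9 fell in Shh cells, against 18.9% each way, again beside the falling microglia and macrophage markers. Among them Rgs1, which damps G protein signals in leukocytes, fell by 1.89 in Wnt and 1.84 in Shh cells (adjusted p = 4.5e-05 and 0.000117), and Gng2, a G protein subunit, was higher in Wnt cells by 0.79 ± 0.16 (adjusted p = 0.000261).

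Shh arrays differed among themselves. Shh array 1 had the highest level of its group for 22 of the 47 genes, more than any other Shh array, the next having 8. On it Cxcl9 was at 11.6, Ccl17 at 10.6, Ccl22 at 8.97, Ccr7 at 9.66 and Ccl6 at 9.21. Of the marker lists, array 1 also had the highest lymphocyte mean of its group, 6.11, and the highest astrocyte mean, 8.62. The part of these cell types in its chemokine values was not tested. Shh array 4 followed for Ccl17 at 8.93, Ccl22 at 7.65 and Ccr7 at 9.29. Without Shh array 1, 21 of the 47 genes were called for Shh minus hindbrain, 8 higher and 13 lower. With all arrays 20 were called, where 37.8% of all genes were. Cxcl9, Ccl8 and Ccr2 differed from hindbrain by 2.11, 1.80 and 1.19 without Shh array 1, all still called. In hindbrain, array 8 was the lowest of its group for 27 of the 47 genes and array 6 the highest for 17. Without hindbrain array 8, 24 genes were called for Wnt minus hindbrain and 21 for Shh minus hindbrain. These compare with 23 and 20 with all arrays, where 45.3% and 37.8% of all genes were called.

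**Figure D5:**
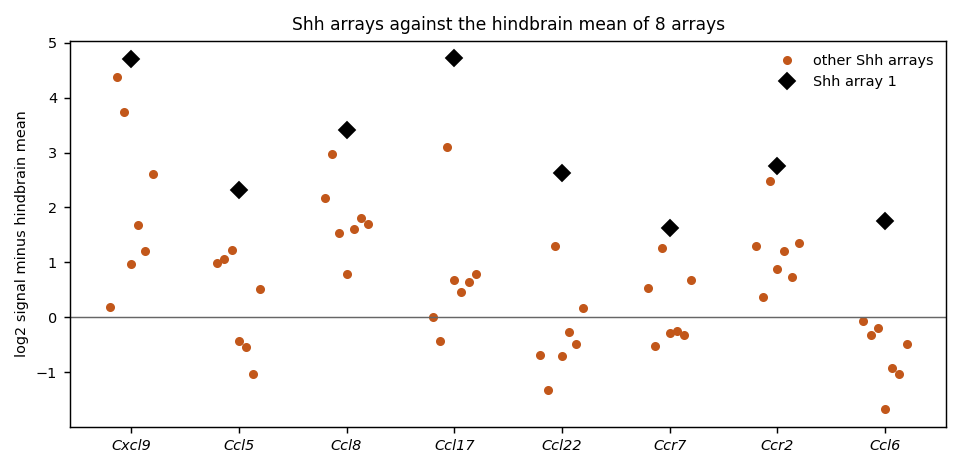
Log2 signal of each Shh array minus the mean of the 8 hindbrain arrays (y axis) for 8 genes (x axis); the black diamond is Shh array 1, orange points the other Shh arrays, the line at 0 the hindbrain mean. The 8 genes shown are all among the 22 of the 47 that are highest on array 1, so its lead for each of them follows from the choice. The Shh arrays spread most for Ccl17 and Cxcl9, with an SD of 1.75 and 1.69.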

How the data were processed

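RNA of cells sorted from Wnt-medulloblastomas, Shh-medulloblastomas and wild-type hindbrain was measured on 24 Affymetrix arrays, 8 per group, with groups taken from the labels. The deposited values are log2 signals, as their range shows, with 1 value for each array and probe set. Per the submitters' processing notes, Partek 6.6 was used. What it did, and how signals were summarised, background-corrected and normalized, is not given in the sources used here. In all 41345 probe sets were deposited, of which 190 are controls, and array medians ran from 5.97 to 6.18. Of the probe sets, 23521 had 1 gene symbol in the platform annotation, 1814 several and 15820 none. Probe sets with 1 symbol gave 22180 genes. For 1082 of these several probe sets existed, and the brightest was kept.

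The values were used as deposited. All 24 arrays entered 1 limma 3.58.1 fit on group (lmFit, then eBayes with no trend, leaving 21 residual degrees of freedom, under R 4.3.3), two-sided, with Benjamini-Hochberg adjustment over all genes. The test was checked on simulated data. The genes, the lists of roles, pathways and markers and the alternatives were chosen with earlier results of these data known. Named were, in each comparison, all called genes of the 47 above background in a compared group, a set of further ligands and receptors, and for each pathway list its strongest rises and falls and a set of cytokines and atypical receptors, of which part is printed. Motifs were sought by exact letters on both strands. All 47 symbols matched the RefSeq gene table. No genome build is named for the array, so positions are given only for RefSeq stretches.

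Alternatives were the mean of a gene's probe sets, every probe set on its own, quantile normalization, a shift to equal medians, dropping dim genes, array weights, a variance trend, fits to only the compared groups, the replicate number as a block, the endothelial or the microglia and macrophage marker mean as a covariate, leaving out Wnt arrays 1 and 8, and leaving out each array.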

Additional observations from a re-analysis of the deposited data

Results flagged for a closer look

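On 10 of the 93 gene and group combinations tested, the outermost of 8 arrays stood apart from the others by Dixon's criterion for the gap over the range. Chance gives about 1 in 20. Wnt array 2 was high for 3 interferon or T cell chemokines, with Cxcl9 at 8.78 (next array 7.37), Cxcl11 at 8.52 (6.38) and Ccl5 at 9.005 (7.47). Wnt array 4 was high for Ccl11 at 8.47 (6.95), and Wnt array 5 low for Cxcl2 at 7.005 (8.57). Shh array 2 was high for Cxcr4 at 11.66 (10.97). In hindbrain, array 6 was high for Ccl20 at 6.09 (5.77) and low for Cxcl12 at 11.24 (11.49), array 7 was high for Cxcl13 at 7.89 (6.66), and array 8 was low for Ccl2 at 9.76 (10.35).

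The effects of the tumours against hindbrain differed by the Wnt minus Shh test for 18 named genes. Cxcl15 also passed it (0.49, adjusted p = 0.0304), below background in both tumours. Wnt cells were lower than Shh cells for Ccl11 (-3.85), Cxcl9 (-2.49), Ccl8 (-2.04), Ccl5 (-1.97), Ccr7 (-1.51), Ccl22 (-1.45), Ccr2 (-1.11), Cxcl16 (-1.06), Cxcr4 (-0.98), Ccr9 (-0.98), Cxcr2 (-0.93), Ccl2 (-0.84) and Cxcl1 (-0.67). They were higher for Cxcl14 (3.84), Cxcl13 (1.58), Cxcr6 (1.02), Ccl27a (0.37) and Ccl28 (0.32). Adjusted p among the 18 ran up to 0.0465, for Ccl27a, a call lost without any of 14 single arrays and for the mean of its probe sets (0.02). The dimmer Ccl27a probe set was called in the opposite direction (-0.32, adjusted p = 0.0465). With the endothelial marker mean in the fit the calls of Ccl22, Cxcr2 and Ccl28 were among those lost, at differences of -1.59, -0.95 and 0.43.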

How the results depend on the processing

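Of 2487 values of 69 named differences under the alternatives, 2381 kept their direction and side of the threshold, 85 lost their call, 17 gained it and 4 turned their direction. The 4 were Ccl9 (0.0257) and Cxcl16 (0.35) for Wnt minus hindbrain with the microglia and macrophage marker mean in the fit, and Ccl27a for its second probe set (0.00879 for Shh minus hindbrain, -0.32 for Wnt minus Shh). That probe set lay around background in all groups, and its opposite Wnt minus Shh difference was called (adjusted p = 0.0465). The causes were not tested. With the endothelial marker mean in the fit, 13 of the 47 genes were called for Wnt minus hindbrain, 2 higher and 11 lower. Of all 22180 genes, 2344 were then higher and 2038 lower. For Wnt minus Shh, 2 of the 47 were higher, against 1783 of all genes, and the median difference was -0.53, against 0.01 over all genes. With the microglia and macrophage marker mean, 15 of the 47 were called for Wnt minus hindbrain, 8 of them lower. Of all 22180 genes, 3977 were higher and 3705 lower in that fit. Leaving out 1 array at a time, 22 to 26 genes were called for Wnt minus hindbrain, 19 to 21 for Shh minus hindbrain and 17 to 21 for Wnt minus Shh. With all arrays the counts were 23, 20 and 19, where 45.3%, 37.8% and 35.8% of all genes were called. Under the same omissions the Wnt minus Shh difference of the microglia and macrophage marker mean ran from -0.85 to -0.48, passing the test without Shh array 5. The labels do not say that replicate numbers pair the arrays. Correlations of same-numbered arrays of different groups ran from -0.15 to 0.28, and were not set against those of differently numbered arrays. With the replicate block the calls were 5 higher and 18 lower for Wnt minus hindbrain, 8 and 12 for Shh minus hindbrain and 6 and 12 for Wnt minus Shh, Cxcl1 being lost (adjusted p = 0.0501). Of all 22180 genes, that fit called 5064 and 4787, 4152 and 4060, and 3920 and 3894 in the same order. Genes near the background level of 5.24 have little room to fall, which limits Ccl20, Ccl22, Ccr6, Ccr9 and Cxcr5.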

Other observations

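Probe sets that carry several symbols of the rule, 33 in all, name no single gene and were left out of the tests. Of 13 such sets for Ccl19, a ligand of Ccr7, the brightest averaged 7.59 ± 0.49 in Wnt, 10.06 ± 0.79 in Shh and 8.57 ± 0.35 in hindbrain arrays. Its lowest, median and highest level was 7.03, 7.45 and 8.64 in Wnt, 8.32, 10.31 and 10.65 in Shh, and 8.12, 8.56 and 9.07 in hindbrain arrays, so Shh arrays were mostly the highest. Of 9 sets for Ccl21, the other ligand of Ccr7, the brightest averaged 7.88 ± 1.31 in Wnt, 9.32 ± 0.97 in Shh and 9.14 ± 1.29 in hindbrain arrays, with overlap among all groups. The brightest of 11 sets for Ccl27 averaged 7.84 ± 0.16 in Wnt, 8.08 ± 0.30 in Shh and 8.46 ± 0.16 in hindbrain arrays.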
